A study of Homo sapiens with 12 samples.

Results

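KMS-11 is a human multiple myeloma line, a cancer of antibody-secreting plasma cells, that carries the t(4;14) translocation, which places the FGFR3 and NSD2 genes under immunoglobulin enhancers. The report describes the vehicle arm of a drug experiment on this line, the 3 arrays of cells given DMSO for 12 h against the 3 arrays of cells given DMSO for 6 h, which are 6 of the 12 arrays of the series and were chosen by their titles. All cells were held in medium with 1% fetal bovine serum for 24 h before treatment. The remaining 6 arrays, 3 at each time, are of cells given NSC12 at 6 µM, a synthetic compound known as a fibroblast growth factor trap, and are used here for the shared estimate of spread and for a test of whether the time differences are alike. The cells are 1 established line in culture, without stroma or serum growth factors at their usual level, and no untreated or zero-hour array and no culture in full serum was analysed here. The labels do not say that replicates came from separate cultures, so the p-values measure the spread between these arrays, which may be technical.

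Cells deprived of serum lose growth factor signals that keep the MAP kinase and phosphoinositide 3-kinase pathways active. The immediate early genes (FOS, EGR1, JUN) are transcribed within minutes of a growth factor or stress signal and their mRNAs are short-lived. The heat shock response, driven by the factor HSF1, makes chaperones when unfolded protein builds up and is shut off again when it has been dealt with, while the integrated stress response, acting through ATF4, turns on amino acid synthesis and transport. Plasma cells carry a large load of secreted protein, and IRF4, PRDM1 and XBP1 maintain their state.

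RNA was measured on Illumina bead arrays, whose values are intensities and not read counts, and precision is set by how many arrays there are. The mean raw intensity per array was 583, 634 and 347 at 6 h and 451, 599 and 563 at 12 h, and the means of the 2 times, 521 ± 153 (SD, n = 3) and 538 ± 77.3 (SD, n = 3), were closer than the spread within a time (exact permutation test, two-sided p = 0.9, in a design that cannot go below 0.1). Replicate 3 at 6 h was the dimmest of the 6. After quantile normalization over the 12 arrays, a pair of DMSO arrays of the same time correlated at 0.993 to 0.997 across genes and a pair of different times at 0.993 to 0.996, and no 2 arrays held identical values. Levels below are log2 normalized intensities, and differences are 12 h minus 6 h on the same log2 scale with their standard errors. A level of 6.97, under which 95% of 371 olfactory receptor genes lay, was taken as the background, and a gene counts as above it where its mean passes that level at either time. Each probe binds with its own efficiency, so levels of different genes are not ranked against each other.

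Few genes differed between the times. Of 20045 genes tested, 80 (0.399%) passed an adjusted p of 0.05 (limma with Benjamini-Hochberg adjustment over all genes), 50 of them higher at 12 h (0.249% of the genes tested) and 30 lower (0.15%). At an unadjusted p under 0.05 there were 2021 genes. Over all genes the difference ran from -0.16 at percentile 5 to 0.17 at percentile 95, and 1 called gene, CCL3L3, reached a 2-fold difference. Of the 20045 genes, 10349 had a positive difference. The called differences were small, with a median of 0.43 among the genes that rose and -0.40 among those that fell, and the smallest was 0.26, against a median standard error over all genes of 0.07. In all 80 genes the 3 arrays of one time lay wholly above the 3 of the other, which was so for 2990 (14.9%) of all genes, and all 80 were above background at both times.

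The number of calls depended on the arrays and on the shared spread. With the 6 DMSO arrays alone in the fit, 15 genes passed, 9 higher and 6 lower. Leaving out 6 h replicate 1, 2 or 3 left 45, 38 or 20 calls, leaving out 12 h replicate 1, 2 or 3 left 102, 21 or 122, and with each array centred on its median 14 genes passed, 13 of them higher. The share of calls that were higher was 62.5% as reported, 76.5% with cyclic loess and 92.9% with median centring. Of the 80 genes, 17 passed whichever DMSO array was left out, namely CCL3, CCL3L1, CCL3L3, SCARNA18, EGR1, ADM, INHBE, HMGCS1, H2BC21, JUN, B4GALNT1, HSPA6, RBM3, CENPE, DNAJB1, BAG3 and LARP7. The other 63 lost their call in at least 1 of these fits. CCL3, CCL3L1, CCL3L3, EGR1 and HSPA6 passed under all 19 alternatives tried, and none of the 80 changed sign under any of them. The lack of sign changes says little. With the times wholly separate in all 80, leaving out 1 array could hardly turn a sign. A stricter threshold or a fit of the DMSO arrays alone does not alter the difference.

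Chaperone genes of the heat shock response fell between 6 h and 12 h. Of 28 genes on a heat shock list, 8 fell, none rose, 13 did not overlap between the times and the median difference was -0.15, where the median over all genes was 0.00. Over all genes 0.15% fell and 14.9% did not overlap. Under median centring 1 of the 28 fell (HSPA6), and 4 fell without 12 h replicate 2 or with only the DMSO arrays in the fit. The 8 are HSPA6, HSPA1B, DNAJB1, BAG3, HSPH1, DNAJA1, HSP90AA1 and RBM3. RBM3, an RNA-binding protein, is known as a gene induced by mild cold, not by heat. These are bulk values normalized to a common distribution, so a change in RNA per cell and a change in the share of cells that express a gene cannot be told apart.

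HSPA6 encodes a strictly inducible HSP70 chaperone, nearly silent in unstressed cells. Its level was 8.23, 8.23 and 8.34 in the 6 h arrays and 7.36, 7.37 and 7.37 in the 12 h arrays. Every 6 h array lay above every 12 h array, and the 12 h arrays were still above background. The difference was -0.90 ± 0.07, a 1.87-fold fall (limma adjusted p = 1.02e-07). HSPA1B, the abundant inducible HSP70, read 11.84, 11.63 and 11.39 at 6 h and 10.48, 10.83 and 11.27 at 12 h. The times did not overlap, but the lowest 6 h array and the highest 12 h array lay close together, and the call was lost without 6 h replicate 1 or 12 h replicate 2. The difference was -0.76 ± 0.13 (limma adjusted p = 0.00916). HSPA1A, its nearly identical neighbour, has a probe of its own that lay below background in all 6 arrays, and the HSPA1B probe may read both copies.

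Some co-chaperones of HSP70 also fell, 2 of 46 DNAJ genes on the array among them (DNAJB1 and DNAJA1), a family with 20 positive differences and a median of -0.02. DNAJB1, the J-domain protein that delivers unfolded clients to HSP70, read 10.20, 10.12 and 10.38 at 6 h and 9.60, 9.63 and 9.53 at 12 h, with no overlap and a difference of -0.65 ± 0.07 (limma adjusted p = 2.3e-05). BAG3, a nucleotide exchange factor of HSP70 in selective autophagy, read 9.75, 9.58 and 9.66 at 6 h and 9.06, 9.17 and 9.10 at 12 h. The groups were again separate, with a difference of -0.55 ± 0.08 (limma adjusted p = 0.0018). HSPH1, the HSP110 exchange factor, fell by 0.41 ± 0.08, DNAJA1 by 0.31 ± 0.06 and HSP90AA1, the inducible cytosolic HSP90, by 0.26 ± 0.05. The HSP90AA1 call rests on the probe that was brightest over all 12 arrays. In the DMSO arrays another probe was brighter (13.83 against 13.41) and gave -0.09 ± 0.05, which did not pass, and a dim one just above background gave 0.08 ± 0.07. HSPA8, the constitutive HSP70, gave -0.24 ± 0.06 and missed the threshold.

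RBM3 read 10.19, 10.21 and 10.34 at 6 h and 9.31, 9.53 and 9.56 at 12 h, with a gap between the groups and a difference of -0.78 ± 0.12 (limma adjusted p = 0.00179). CIRBP, the other cold-inducible RNA-binding protein, gave -0.21 ± 0.07 and did not pass.

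**Figure D1:**
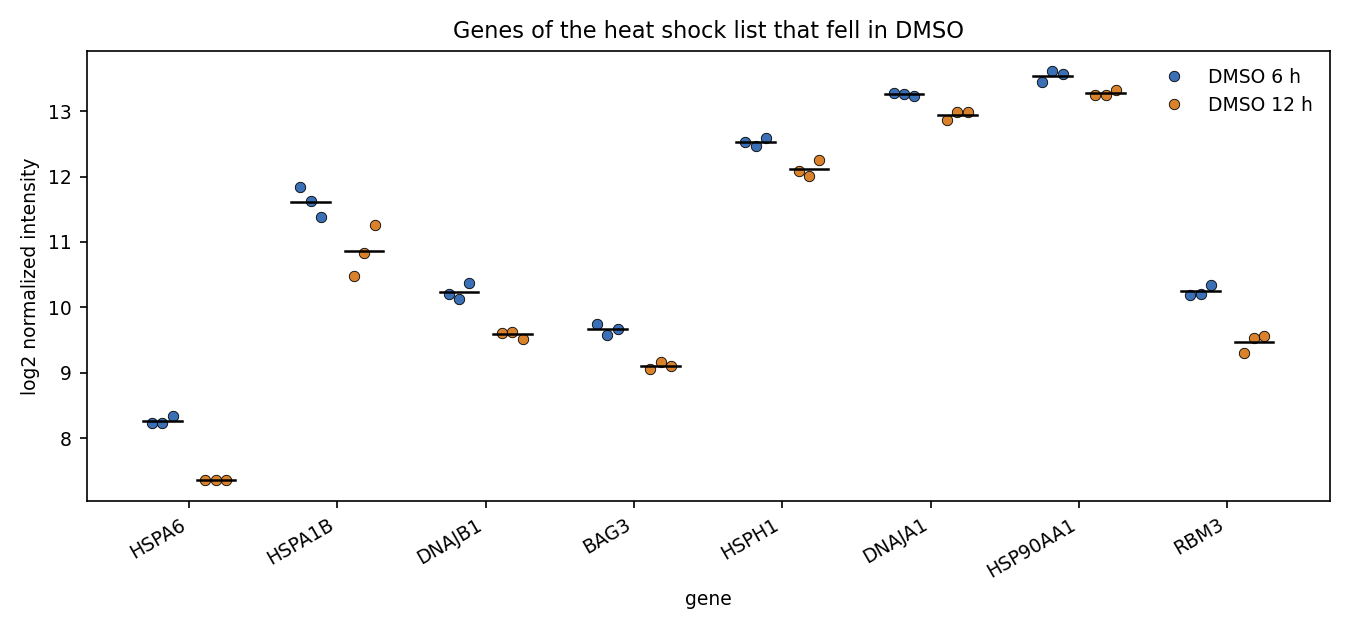
Log2 normalized intensity of the 8 genes of the heat shock list that fell, with 1 point per array (3 at 6 h, 3 at 12 h) and a bar at each group mean. The points of the times do not overlap for any gene, and the gap is narrowest relative to the spread for HSPA1B (11.39 against 11.27).

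Promoter stretches of 4 of these genes are shown because they carry letters of part of a heat shock element, the run of inverted 5-base units that HSF1 binds. Only an inverted pair of units was searched, in its core as GAANNTTC or TTCNNGAA. The sequences are the 250 bases before the RefSeq start on GRCh38.p14, 5′ to 3′ on the gene's strand, with matches in capitals. Each core reads the same on both strands, and a pair of matches overlaps in HSPA6. HSPA6 lies at chr1:161524290-161524539 on the plus strand, HSPA1B at chr6:31827488-31827737 on the plus strand, DNAJB1 at chr19:14518398-14518647 on the minus strand (1 of its 3 annotated starts has matches) and RBM3 at chrX:48574234-48574483 on the plus strand.
HSPA6: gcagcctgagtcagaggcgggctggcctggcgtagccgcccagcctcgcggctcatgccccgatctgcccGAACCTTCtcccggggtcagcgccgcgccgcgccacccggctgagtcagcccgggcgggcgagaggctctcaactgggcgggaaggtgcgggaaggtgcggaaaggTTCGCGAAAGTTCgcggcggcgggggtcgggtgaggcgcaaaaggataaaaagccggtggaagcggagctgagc
HSPA1B: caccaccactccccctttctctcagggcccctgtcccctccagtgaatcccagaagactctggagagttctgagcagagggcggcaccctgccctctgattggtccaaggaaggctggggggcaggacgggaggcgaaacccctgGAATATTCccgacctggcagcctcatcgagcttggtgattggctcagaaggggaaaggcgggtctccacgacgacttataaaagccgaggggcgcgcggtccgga
DNAJB1: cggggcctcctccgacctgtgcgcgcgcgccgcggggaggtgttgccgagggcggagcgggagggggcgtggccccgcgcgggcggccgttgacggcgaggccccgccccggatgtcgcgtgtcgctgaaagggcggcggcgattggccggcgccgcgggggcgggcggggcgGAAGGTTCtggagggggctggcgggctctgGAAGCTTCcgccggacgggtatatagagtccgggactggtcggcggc
RBM3: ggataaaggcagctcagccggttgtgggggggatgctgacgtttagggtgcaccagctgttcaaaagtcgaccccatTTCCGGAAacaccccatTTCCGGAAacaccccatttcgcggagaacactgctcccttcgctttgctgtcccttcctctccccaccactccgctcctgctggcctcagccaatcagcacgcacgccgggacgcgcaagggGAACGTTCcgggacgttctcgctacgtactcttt

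The first bases of the matches lie 180, 74 and 69 bases before the start in HSPA6, 105 in HSPA1B, 77 and 47 in DNAJB1 and 173, 156 and 34 in RBM3. Of the 8 genes, 6 had a match in at least 1 window (75%), against 1946 of the 15034 genes on the array with a window (12.9%), while BAG3 and HSPH1 had none in theirs. The 8 come from a list of heat shock genes, a response that HSF1 drives. A high share was thus likely beforehand and says nothing of these data. Among the 28 genes with a window of the 30 that fell, 9 had a match (32.1%), and among 36 of the 50 that rose, 6 had one (16.7%). The 9 among the falls are the 6 of the heat shock list with MRPL18, USP16 and SMC4. A match is a run of letters and not a measured binding site.

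The 22 genes that fell outside this list served several processes. CENPE, the kinesin that links kinetochores to microtubules, read 9.67, 9.68 and 9.78 at 6 h and 8.88, 8.92 and 9.14 at 12 h, a difference of -0.73 ± 0.11 with no overlap (limma adjusted p = 0.00159). Of 39 mitotic genes it was the only one called, with a list median of -0.05. KIF20B, another mitotic kinesin (-0.38 ± 0.08), and SMC4, a condensin subunit (-0.33 ± 0.07), also fell, while 39 DNA replication genes had no call and a median of 0.01. LARP7, which binds and stabilises the 7SK RNA, fell from 10.69, 10.82 and 10.94 to 10.34, 10.29 and 10.36 (-0.49 ± 0.07, limma adjusted p = 0.00183).

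Genes of RNA and protein synthesis were among the other falls. DDX21, a helicase of ribosomal RNA processing, fell by 0.41 ± 0.07, the translation initiation subunit gene EIF3J by 0.40 ± 0.09, the mitochondrial ribosomal gene MRPL18 by 0.38 ± 0.08 and POLR3G, an RNA polymerase III subunit, by 0.35 ± 0.08. POLR3G was the only one of 35 ribosome biogenesis and MYC-activated genes to pass, although 3 of the 35 had a positive difference and the list median was -0.07. INTS13, an Integrator subunit, fell by 0.44 ± 0.10 and USP16, a histone H2A deubiquitinase, by 0.37 ± 0.08. The remaining falls were FAM72B, PPIA (the one housekeeping gene of 13 that passed), FAM3C, ITPRID2, STXBP3, OPA1, ZDHHC17, ACAP2, TAGLN2, MTX3, DEDD2 and ANXA1, with differences from -0.47 for FAM72B to -0.33 for ANXA1. The calls of FAM72B and SMC4 rest on their brightest probes, since at least 1 other probe above background gave a positive difference (0.11 for FAM72B, 0.14 for SMC4), and FAM72B belongs to a family of nearly identical copies.

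Chemokine genes of the CCL3 cluster rose the most. CCL3 encodes macrophage inflammatory protein 1 alpha, which myeloma cells secrete and which drives bone resorption, and CCL3L1 and CCL3L3 are its nearly identical copies. CCL3L3 read 9.20, 9.34 and 9.18 at 6 h and 10.68, 10.53 and 10.51 at 12 h, a rise of 1.34 ± 0.07 or 2.53-fold (limma adjusted p = 7.06e-11). CCL3 read 7.96, 8.13 and 8.01 at 6 h and 8.97, 9.07 and 8.95 at 12 h, a rise of 0.96 ± 0.08 (limma adjusted p = 3.23e-07). The arrays of the times were far apart for both, as for CCL3L1 (0.85 ± 0.09, limma adjusted p = 1.44e-05). Probes of these copies may bind each other's transcripts, so the 3 genes may be 1 signal. CCL4, the neighbouring chemokine, lay below background at both times, and CCL3 was the only call among 30 NF-kappaB subunits and targets, whose median was 0.02.

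A set of immediate early genes rose. Of 25 on the list 6 rose, none fell, 11 did not overlap between the times and the median difference was 0.18. Over all genes 0.249% rose and 14.9% did not overlap. The 6 are EGR1, FOS, DUSP1, JUN, JUNB and ZFP36. With only the DMSO arrays in the fit 1 of them passed (EGR1), and 2 passed without 6 h replicate 2, 6 h replicate 3 or 12 h replicate 2.

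EGR1, a zinc finger factor, read 7.35, 7.25 and 7.14 at 6 h and 8.10, 8.13 and 7.73 at 12 h, with a difference of 0.74 ± 0.10 (limma adjusted p = 9.21e-04). Its 6 h arrays were close to background and lay below every 12 h array. FOS, the partner of JUN in the AP-1 factor, read 8.78, 7.89 and 8.41 at 6 h and 8.83, 9.29 and 8.95 at 12 h. Its arrays were spread within each time and nearly touched between them, with a difference of 0.66 ± 0.15 (limma adjusted p = 0.0489). JUN read 9.17, 9.03 and 9.11 at 6 h and 9.70, 9.71 and 9.49 at 12 h, and its groups stood apart, with a difference of 0.53 ± 0.07 (limma adjusted p = 5.68e-04). DUSP1, the phosphatase that turns MAP kinases off, rose by 0.56 ± 0.12, JUNB by 0.44 ± 0.09 and ZFP36, which destabilises cytokine mRNAs, by 0.38 ± 0.07. The calls of FOS and DUSP1 were lost without 6 h replicate 2, 6 h replicate 3 or 12 h replicate 2.

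The EGR1 promoter is shown as the one window among these 6 genes with the CArG box, the element that serum response factor binds. It lies at chr5:138465229-138465478 on the plus strand of GRCh38.p14, as the 250 bases before the RefSeq start, with both boxes in capitals.
EGR1: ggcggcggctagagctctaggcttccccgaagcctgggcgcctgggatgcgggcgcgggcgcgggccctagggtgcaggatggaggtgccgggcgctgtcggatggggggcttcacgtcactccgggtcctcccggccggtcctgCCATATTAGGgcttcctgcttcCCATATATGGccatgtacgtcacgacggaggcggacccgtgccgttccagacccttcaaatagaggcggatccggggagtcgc

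The boxes begin 105 and 83 bases before the start and read the same on both strands in the pattern searched. Of 15034 genes with a window, 239 (1.59%) had a match, as did 3 of the 36 genes that rose and have a window (8.33%) and none of the 28 that fell. The windows of FOS, JUN, JUNB, DUSP1 and ZFP36 held no such letters, which says nothing of the factor beyond these windows.

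**Figure D2:**
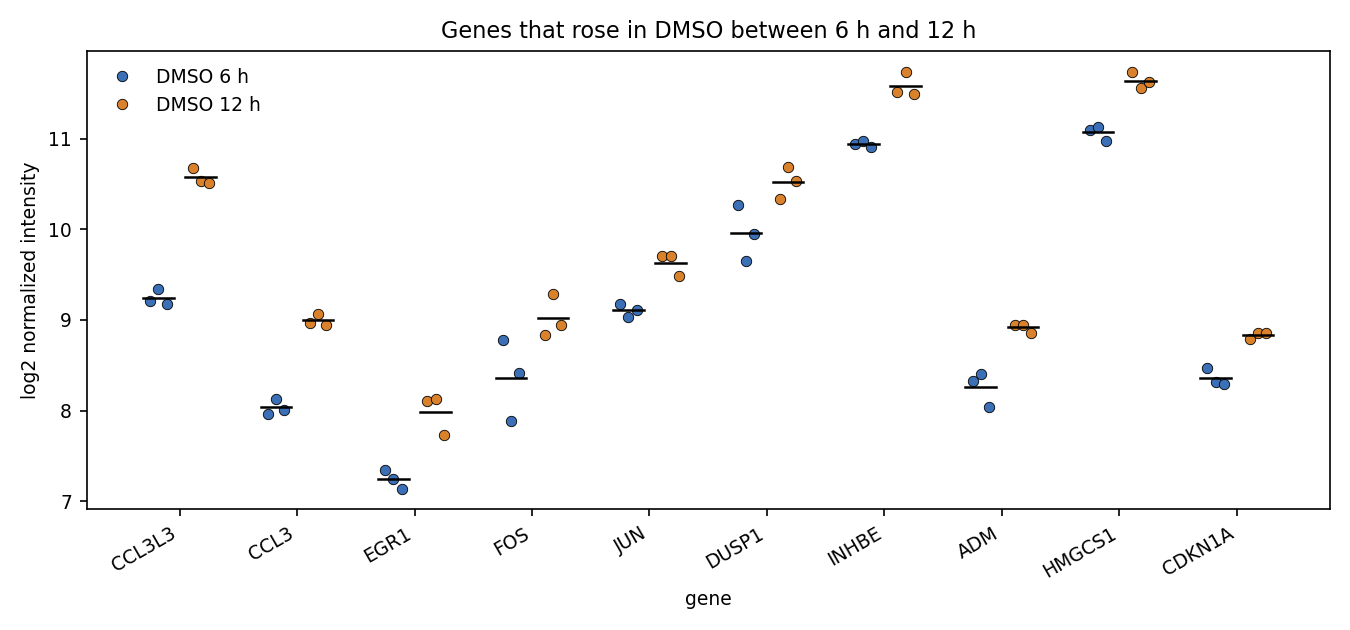
Log2 normalized intensity of 10 genes that rose, with 1 point per array (3 at 6 h, 3 at 12 h) and a bar at each group mean. CCL3L3 and CCL3 are separated by more than their spread, while the FOS arrays of the times almost meet (8.78 against 8.83).

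Feedback and target genes of the FGF and MAP kinase pathway did not pass as a group with these. Of 17 measured, none was called, 12 were positive and the median was 0.06. DUSP6, a feedback phosphatase of ERK, gave 0.35 ± 0.10 and was not called. Its 6 h arrays (8.98, 8.91 and 8.54) all lay below its 12 h arrays, but the times nearly touched. A dimmer DUSP6 probe, at a level of 7.07, went the other way (-0.19 ± 0.07) and did not pass either. DUSP5 gave 0.27 ± 0.08 and SPRY1, a feedback inhibitor of receptor signalling, 0.06 ± 0.08.

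Genes of the ATF4 amino acid response mostly had positive differences. Of 33 genes 4 rose, none fell, 29 had a positive difference, 16 did not overlap and the median was 0.17. Of all 20045 genes 0.249% rose, 10349 had a positive difference and 14.9% did not overlap. DDIT4, an inhibitor of mTORC1, read 11.05, 11.14 and 11.01 at 6 h and 11.66, 11.50 and 11.40 at 12 h, a rise of 0.45 ± 0.07 without overlap (limma adjusted p = 0.00523). CEBPB, a partner of ATF4, rose by 0.37 ± 0.07, TRIB3, a pseudokinase that restrains ATF4, by 0.36 ± 0.07 and PHGDH, the first enzyme of serine synthesis, by 0.31 ± 0.06. None of the 4 passed with only the DMSO arrays in the fit, under median centring or without 6 h replicate 3. ATF4 itself gave -0.04 ± 0.05, DDIT3 0.09 ± 0.07 and ASNS, asparagine synthetase, 0.24 ± 0.07, and none of these was called. INHBE, an activin subunit that stress through ATF4 is known to induce and which is on no list here, rose from 10.94, 10.98 and 10.91 to 11.51, 11.74 and 11.50 (0.64 ± 0.07, limma adjusted p = 8.81e-05), and its arrays were well apart. ASS1, argininosuccinate synthase, rose by 0.46 ± 0.08 on its brightest probe and by 0.54 ± 0.11 on the next, with another, dim probe at -0.15 ± 0.08.

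Cholesterol synthesis and uptake genes gave 3 rises of 23 (HMGCS1, MSMO1 and NSDHL), no fall, 20 positive differences and a median of 0.15. Over all genes 0.249% rose, and 10349 of 20045 had a positive difference. HMGCS1, which makes HMG-CoA and is a target of the sterol-sensing factor SREBP2, read 11.10, 11.13 and 10.98 at 6 h and 11.74, 11.56 and 11.62 at 12 h, a rise of 0.57 ± 0.08 without overlap (limma adjusted p = 0.00174). MSMO1 rose by 0.45 ± 0.10, with the 6 h arrays at 11.88, 12.04 and 11.49, and NSDHL by 0.34 ± 0.07. The MSMO1 call rests on its brightest probe. Another probe, at a level of 10.49, gave 0.10 ± 0.22 and a dimmer one 0.25 ± 0.09, and neither passed. HMGCS1 was the only one of the 3 to pass with only the DMSO arrays in the fit. Of 15 fatty acid synthesis genes none passed, and their median was -0.06.

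A small number of genes tied to growth arrest, hypoxia or nutrient loss rose, where 0.249% of all genes did. CDKN1A, the p21 inhibitor of cyclin-dependent kinases and a p53 target, read 8.47, 8.31 and 8.30 at 6 h and 8.79, 8.86 and 8.85 at 12 h. Its groups were separate, with a rise of 0.47 ± 0.08 (limma adjusted p = 0.0073) that was lost without 6 h replicate 3 or 12 h replicate 2. It was the only call among 25 p53 targets (median 0.05) and among 21 G1 cyclins and CDK inhibitors (median 0.02), and CDKN1B, the p27 inhibitor, gave 0.02 ± 0.07.

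Of 27 FOXO and serum-withdrawal genes 3 rose and 10 did not overlap between the times, with a list median of 0.07. Over all genes 0.249% rose and 14.9% did not overlap. The 3 are CDKN1A, the ubiquitin ligase gene FBXO32 (0.41 ± 0.09) and TSC22D3 (0.31 ± 0.07), a glucocorticoid- and FOXO-induced leucine zipper gene. None of the 3 passed with only the DMSO arrays in the fit. Among 30 hypoxia response genes ADM and DDIT4 rose, 10 did not overlap and the median was 0.08. ADM, the vasoactive peptide adrenomedullin, read 8.33, 8.40 and 8.04 at 6 h and 8.94, 8.95 and 8.86 at 12 h, a rise of 0.66 ± 0.09 with no overlap (limma adjusted p = 5.68e-04). Of 17 glycolytic enzymes none passed (median -0.04), and of 31 lysosome and autophagy genes ULK1, the kinase that starts autophagy, rose by 0.39 ± 0.08 (median 0.07). TXNIP, a glucose-sensing arrestin gene, gave -0.06 ± 0.07.

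Small nuclear RNAs of the Cajal body formed a family among the rises that was picked out after the values were seen and was not tested as a group. The 5 noncoding genes among the 50 rises were SCARNA18, SCARNA13, SCARNA22, SCARNA16 and SNORA12, guides for the modification of spliceosomal or ribosomal RNA. SCARNA18 read 7.96, 7.81 and 7.47 at 6 h and 8.46, 8.59 and 8.59 at 12 h, with separate groups and a rise of 0.80 ± 0.10 (limma adjusted p = 2.62e-04). SNORA12 rose by 0.63 ± 0.13, SCARNA13 by 0.52 ± 0.11, SCARNA22 by 0.46 ± 0.08 and SCARNA16 by 0.41 ± 0.09. Of 24 SCARNA genes on the array 4 rose and 23 had a positive difference, including all 16 above background, with a median of 0.09. Over all genes 0.249% rose, and 10349 of 20045 had a positive difference. The 101 SNORA genes had 62 positive differences and a median of 0.02, and the 176 SNORD genes 82 and -0.01. How far such short transcripts are captured in these preparations is not given in the sources used here.

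Histone genes gave a linker and a core histone. H2BC21, an H2B gene with a polyadenylated transcript, read 9.23, 9.19 and 9.23 at 6 h and 9.90, 9.68 and 9.66 at 12 h, a clear separation with a rise of 0.53 ± 0.08 (limma adjusted p = 0.00202). It was the only call among 58 replication-dependent histones, of which 48 were positive and the median was 0.08. H1-10, a replication-independent linker histone, rose by 0.53 ± 0.10, and its 12 h arrays, at 11.14, 10.96 and 10.61, were spread.

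Genes of the plasma cell and of its surface gave 1 call each. IRF4, the transcription factor on which myeloma cells depend, read 10.85, 10.86 and 10.64 at 6 h and 11.20, 11.21 and 11.01 at 12 h, a rise of 0.36 ± 0.08 just past the threshold (limma adjusted p = 0.0489) and lost under 14 of the 19 alternatives. It was the only call of 21 plasma cell genes, of which 18 were positive, with a median of 0.11. DERL3, an ER degradation gene, gave 0.49 ± 0.11 and MZB1, a chaperone of antibody secretion, 0.34 ± 0.10, and both missed the threshold with no overlap between the times. CD48, a signalling lymphocyte receptor, was the only call of 25 surface antigens (0.41 ± 0.09). It too was just past the threshold (limma adjusted p = 0.0483) and was lost under 11 of the 19 alternatives. SIL1, the exchange factor of the ER chaperone BiP, rose by 0.37 ± 0.07, whereas of 31 ER chaperone and unfolded protein response genes none passed (median 0.09). P4HB, a disulfide isomerase, gave 0.15 ± 0.07 and SEC61B, a subunit of the translocon, -0.02 ± 0.06.

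The other rises were of genes on no list. They were the glycosyl- and sulfotransferase genes B4GALNT1 and CHST12, the TLR4 co-receptor LY96, the ion channel TRPM8, the GTPase-activating gene ARHGAP9, the lysosomal nuclease DNASE2, the phosphatase DUSP26, the transcriptional regulator HES6, the collagen hydroxylase PLOD1, the glyoxalase HAGH, the G-protein regulator RGS16, the tubulin TUBB2B, the ligand gene WNT10A, and TMEM98, TSPAN31, JSRP1 and CKAP4. B4GALNT1 passed with any DMSO array left out, at 8.93, 8.77 and 8.75 at 6 h and 9.28, 9.31 and 9.35 at 12 h (0.50 ± 0.07, limma adjusted p = 0.0018). The rest differed by between 0.35 for RGS16 and 0.48 for LY96. These genes, and the falls outside the 12 largest, were named after their values were seen so that all 80 are accounted for.

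Of 41 gene lists covering 942 measured genes, 16 had at least 1 call and 25 had none, and 33 of the 80 called genes were on a list. Lists share members, CDKN1A and DDIT4 among them. Among the 25 lists without a call the medians lay between -0.06 and 0.09. They include 55 ribosomal proteins (0.02), 38 oxidative phosphorylation genes (0.01), 31 proteasome genes (-0.03), 31 interferon response genes (0.00), 24 NRF2 targets (-0.03), 10 metallothionein and zinc genes (-0.01) and 20 circadian clock genes (0.03), for which NFIL3 gave -0.04 ± 0.08 and CSNK1E 0.11 ± 0.07. In the DNA replication list MCM7, a helicase subunit, gave 0.05 ± 0.07 and ORC6, an origin recognition subunit, 0.06 ± 0.06.

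**Figure D3:**
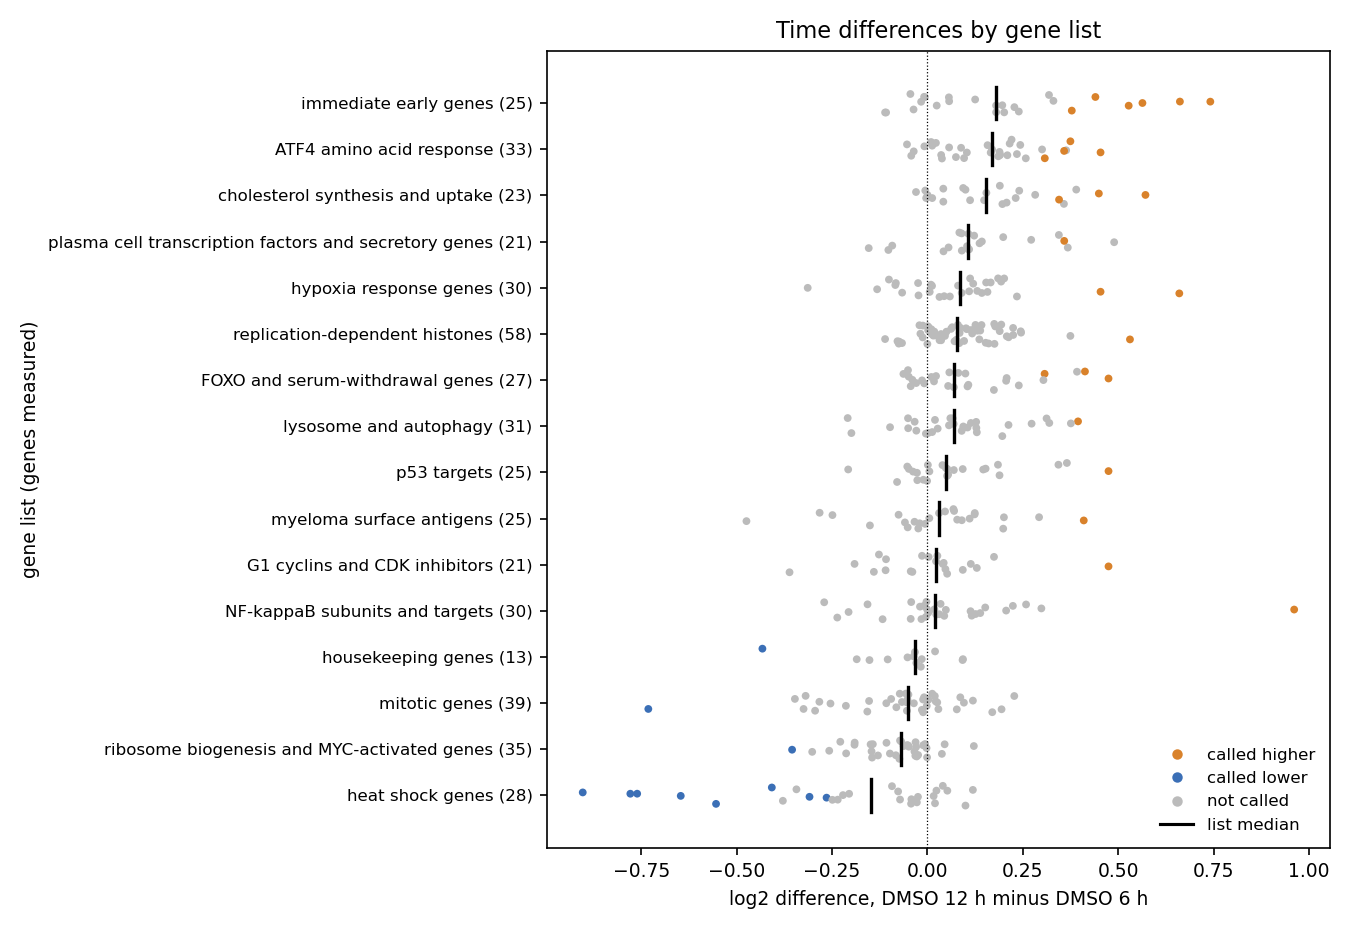
Log2 difference between DMSO 12 h and DMSO 6 h of each gene of the 16 lists with at least 1 call, 1 point per gene coloured by its call, with a black bar at the list median. The heat shock list lies lowest (median -0.15) and the immediate early, ATF4 and cholesterol lists highest (0.18, 0.17 and 0.15).

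In NSC12-treated cells far more genes differed between the same times. There 4490 genes passed (22.4% of the genes tested), 2206 higher (11%) and 2284 lower (11.4%), percentiles 5 and 95 of the difference lay at -0.41 and 0.40, and 1250 genes differed by over 0.5, where 25 did in DMSO. The NSC12 arrays share no array with the DMSO comparison. Of the 50 genes that rose in DMSO 20 also rose in NSC12 (40%) and 11 fell there, and of the 30 that fell 11 also fell and 3 rose. The remaining 35 were not called in NSC12.

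The difference between the time changes was called for 2089 genes (10.4%), among them 38 of the 80. Since that test reuses the DMSO arrays that made the calls, nothing is read from the 38. The genes below are given as description only. BAG3 fell in DMSO (-0.55 ± 0.08) and rose in NSC12 (0.39 ± 0.08), and CENPE read -0.73 ± 0.11 in DMSO and 0.28 ± 0.11, not called, in NSC12. HSPA6 fell in DMSO and read 13.96 at 6 h and 13.95 at 12 h in NSC12, close to the highest normalized values, so a further rise or a fall could be hidden. EGR1 rose in DMSO (0.74 ± 0.10) and fell in NSC12 (-0.65 ± 0.10), as did JUN (0.53 ± 0.07 and -0.29 ± 0.07), ULK1 (0.39 ± 0.08 and -0.39 ± 0.08) and IRF4 (0.36 ± 0.08 and -0.38 ± 0.08). These are changes with time and not levels. Mean JUN read 13.69 and 13.40 at 6 h and 12 h in NSC12, against 9.10 and 9.63 in DMSO. BAG3 read 11.49 and 11.88 against 9.66 and 9.11. EGR1, by contrast, read 7.97 and 7.32 against 7.24 and 7.98, and IRF4 11.12 and 10.74 against 10.78 and 11.14. FOS and INHBE rose in both, by 0.66 ± 0.15 and 0.65 ± 0.15 for FOS and by 0.64 ± 0.07 and 0.69 ± 0.07 for INHBE, and DDIT4 rose more in NSC12 (0.94 ± 0.07). FAM3C fell in both and further in NSC12 (-0.43 ± 0.10 and -1.08 ± 0.10).

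The vehicle-treated line carried the genes of a plasma cell. In DMSO 11994 genes (59.8%) lay above background. Of 21 plasma cell genes 20 did, of 25 myeloma surface antigens 20, of 14 B cell genes 8, of 12 myeloid markers 7, of 12 stromal and endothelial markers 4, of 8 erythroid markers 3 and of 13 T and NK cell markers 1, CD7. The summed linear intensity per array ranged from 101495 to 108149 at 6 h and from 104956 to 116018 at 12 h for the plasma cell genes. For the T and NK cell genes it ranged from 1457 to 1511 and from 1461 to 1509, for the myeloid genes from 1746 to 1944 and from 1878 to 2081, for the stromal genes from 1457 to 1521 and from 1496 to 1541, and for the erythroid genes from 943 to 1001 and from 955 to 969. The genes above background were CD14, CD68, LYZ, MPO, S100A9, FCGR3A and FCN1 on the myeloid list, DCN, PDGFRB, ACTA2 and PECAM1 on the stromal list and HBA2, HBB and AHSP on the erythroid list. CD68, a lysosomal protein, read 8.96 at 6 h and 9.18 at 12 h, PDGFRB 7.42 and 7.63 and ACTA2 7.35 and 7.47, and the means of the rest lay between 6.89 and 7.26. CD3D, CD3E, COL1A1 and the B cell genes MS4A1 and PAX5, named after their values were seen, lay below background, while HBB read 7.16 and 7.17.

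Apart from IRF4, no gene of the plasma cell list was called between the times. PRDM1 read 11.41 ± 0.04 (SD, n = 3) at 6 h and 11.47 ± 0.13 (SD, n = 3) at 12 h, XBP1, the factor of the secretory programme, 13.20 ± 0.08 and 13.29 ± 0.06, and POU2AF1, a coactivator of immunoglobulin genes, 10.87 ± 0.20 and 10.97 ± 0.18. JCHAIN, the joining chain of polymeric antibodies, read 13.98 ± 0.09 and 14.07 ± 0.06. IKZF1, a target of myeloma drugs that degrade Ikaros factors, varied among the arrays of a time (10.10, 9.62 and 9.52, then 9.41, 9.81 and 10.84), as did MEF2C (7.45 ± 0.20 and 7.59 ± 0.45), so differences of these genes could not be read at this precision. IKZF3 read 7.95 ± 0.32 and 8.32 ± 0.22 and TCF3 10.76 ± 0.21 and 10.66 ± 0.27.

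Among surface antigens TNFRSF17, the B cell maturation antigen, read 12.82 ± 0.06 (SD, n = 3) at 6 h and 13.02 ± 0.06 (SD, n = 3) at 12 h, and its 0.20 ± 0.06 (SE) did not pass although the arrays did not overlap. TNFRSF13B read 10.25 ± 0.11 and 10.37 ± 0.07, CD28 9.13 ± 0.06 and 9.22 ± 0.10, and SDC1, the plasma cell proteoglycan CD138, 8.61 ± 0.08 and 8.81 ± 0.10. CD44 read 8.43 ± 0.04 and 8.42 ± 0.10. CD38, usually prominent on myeloma cells, was at background on its probe (6.93 ± 0.05 and 6.97 ± 0.11) and is among the 20 counted only through its 12 h mean, and SLAMF7 was barely above it (7.11 ± 0.03 and 7.07 ± 0.18). A probe at background does not show that the protein is lacking.

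Of the t(4;14) genes, FGFR3 lay far above background and NSD2 a little above it. FGFR3, the receptor that the translocation switches on, read 13.96, 13.89 and 13.90 at 6 h and 13.78, 13.89 and 13.98 at 12 h, overlapping, with a difference of -0.03 ± 0.06. NSD2, the histone methyltransferase at the breakpoint, read 7.48 ± 0.01 (SD, n = 3) and 7.55 ± 0.03, the flanking genes LETM1 7.40 ± 0.15 and 7.38 ± 0.07 and TACC3 8.79 ± 0.08 and 8.87 ± 0.26. The NSD2 values are near a stricter background of 7.50, under which 99% of the olfactory receptor genes lay. Other NSD2 probes averaged 7.43, 7.34 and 6.76 in DMSO, and the other FGFR3 probe 7.28. Of 26 genes of this region and the FGF receptor axis 17 were above background, against 59.8% of all genes, and none was called. FGFR4 read 7.32 ± 0.09 and 7.37 ± 0.13, FGFRL1 7.45 ± 0.03 and 7.56 ± 0.09 and the ligands FGF2 7.82 ± 0.14 and 7.81 ± 0.03 and FGF9 8.48 ± 0.28 and 8.41 ± 0.39. FGFR1 lay below background (6.78 ± 0.08 and 6.84 ± 0.06).

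Cyclins D2 and D3 were above background and cyclin D1 was not. CCND2 read 13.72, 13.71 and 13.76 at 6 h and 13.67, 13.54 and 13.56 at 12 h, without overlap but with a difference of -0.14 ± 0.06 that did not pass. CCND3 read 10.66 ± 0.06 (SD, n = 3) and 10.71 ± 0.03, and CCND1 lay below background (6.71 ± 0.04 and 6.80 ± 0.14). CDK6, the kinase partner of D cyclins, gave -0.36 ± 0.08 and fell short of the threshold (limma adjusted p = 0.0525). MYC read 13.20, 13.20 and 13.11 at 6 h and 13.22, 13.26 and 13.22 at 12 h, a difference of 0.07 ± 0.08, and the survival genes MCL1 (11.01 ± 0.09 and 11.24 ± 0.02) and BCL2 (11.09 ± 0.05 and 11.05 ± 0.11) were not called.

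Of 24 growth factor and cytokine receptor genes 17 were above background, against 59.8% of all genes, none was called and the median was 0.03. IL6ST, the gp130 chain through which interleukin 6 signals, read 11.84 ± 0.16 (SD, n = 3) and 11.56 ± 0.20, while IL6R and IL6 lay at or below background. MET, the receptor of hepatocyte growth factor, read 8.62 ± 0.15 and 8.85 ± 0.01, and its ligand HGF 10.15 ± 0.24 and 9.88 ± 0.20. IL2RG read 7.92 ± 0.15 and 7.98 ± 0.15, IL10RA 7.73 ± 0.04 and 7.85 ± 0.13 and ERBB2 7.38 ± 0.01 and 7.47 ± 0.09. IGF1R (7.08 ± 0.12 and 6.95 ± 0.12), INSR (7.02 ± 0.09 and 7.10 ± 0.07) and EGFR (6.91 ± 0.10 and 6.97 ± 0.07) lay near background.

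B cell genes that plasma cells shut off were mixed. HLA-DRA, a class II antigen presentation gene, read 14.23 ± 0.05 (SD, n = 3) and 14.18 ± 0.05, while its activator CIITA read 7.46 ± 0.16 and 7.40 ± 0.05. CR2, the complement receptor CD21, read 9.46 ± 0.21 and 9.66 ± 0.18 and CD79B, a chain of the B cell receptor, 8.50 ± 0.13 and 8.80 ± 0.15. BACH2, a repressor of the plasma cell fate, read 7.56 ± 0.07 and 7.88 ± 0.05, apart but not called. CD79A (7.21 ± 0.03 and 7.34 ± 0.06), SPIB (7.56 ± 0.03 and 7.59 ± 0.22) and CD22 (7.08 ± 0.05 and 6.97 ± 0.06) were low, and none of the 14 genes passed.

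**Figure D4:**
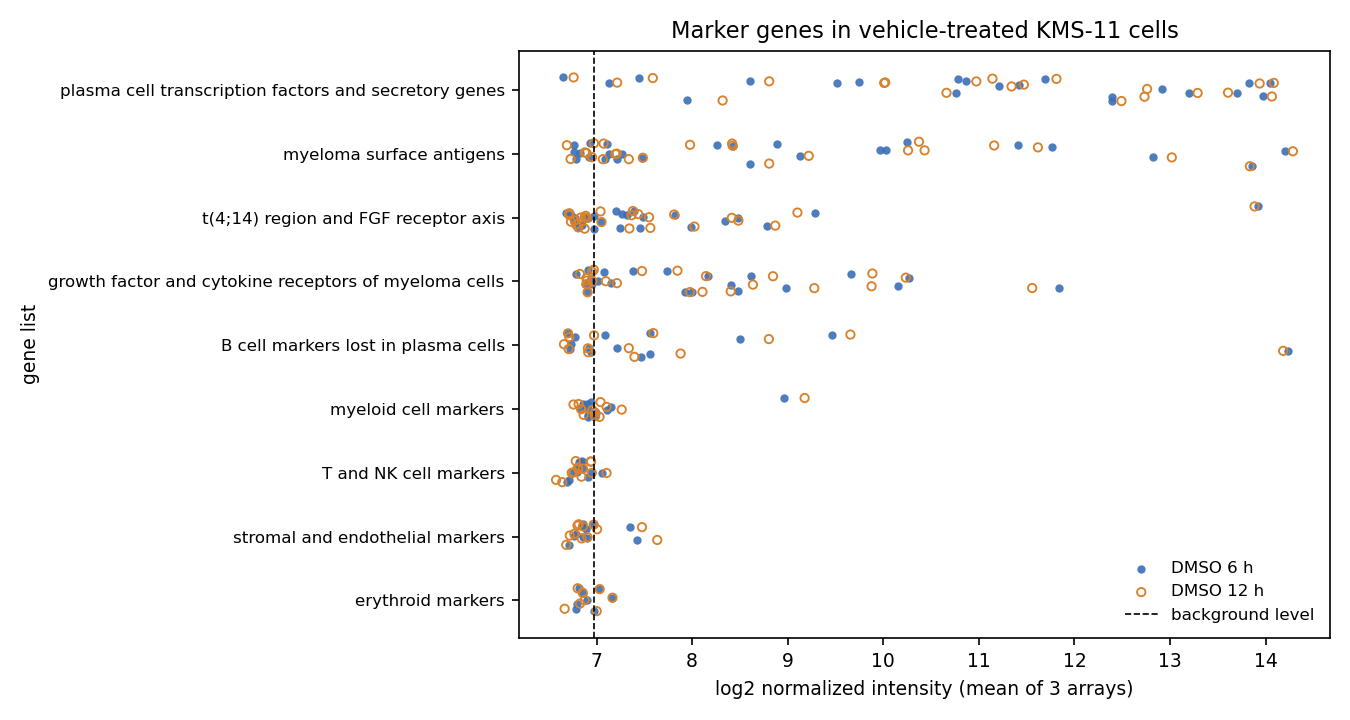
Mean log2 normalized intensity of marker genes in DMSO at 6 h (filled) and 12 h (open), 1 pair of points per gene, n = 3 arrays each, with the background level of 6.97 as a dashed line. Plasma cell genes reach up to 14 and the T and NK cell and erythroid markers stay close to the line.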

How the data were processed

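The deposited table holds linear Illumina bead array intensity values that the authors exported without normalization, as judged from the values; background is left in and no detection p-values were used here. Of 47319 probes, 30111 have 1 gene symbol in the platform annotation, 8 several and 17200 none; 30072 probes were matched by Entrez number to current symbols, and 20045 genes resulted. Intensities were quantile normalized over the 12 arrays and put on the log2 scale, and the brightest probe stood for each of the 6691 genes with more than 1 probe. limma 3.58.1 in R 4.3.3 fitted 4 group means with an intensity trend, tested 12 h against 6 h in DMSO and in NSC12 and the difference of the 2, and was tested on simulated data. Named genes were the 12 largest called rises and falls, up to 4 called members of a list (or the brightest where none passed), a fixed set of myeloma genes and the first 8 expressed members of baseline lists. The other named genes, among them HSPA8, HSPA1A, CIRBP, DERL3, MZB1, JCHAIN, CDK6, CCND3, BCL2, HGF, DUSP6, ATF4, DDIT3 and ASNS, were chosen after their values were seen. Members and lists were chosen with earlier results of these data known. Replicate numbers were not used to pair the arrays. Deviations of same-numbered DMSO arrays correlated at -0.48 to 0.07 and those of different-numbered ones at -0.17 to 0.45. These correlations do not show how the arrays were run. Promoters came from the RefSeq table (GRCh38.p14), which matched 64 of the 80 called genes. Figures were drawn with matplotlib 3.10.9. Alternatives covered the normalization, background, probe choice, filter, variance model, threshold, replicate block and each left-out array.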

Additional observations from a re-analysis of the deposited data

Results flagged for a closer look

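Each gene below had a time change that differed between NSC12-treated and DMSO-treated cells (limma, difference of the 12 h minus 6 h changes, NSC12 minus DMSO, Benjamini-Hochberg adjusted p under 0.05 over all 20045 genes). They are 53 of 133 genes named by rule, 37 with a lower and 16 with a higher change in NSC12, and many were named for their change in DMSO, which the test reuses.

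The log2 difference was -1.39 for EGR1, -1.21 for CCL3, -1.14 for CCL3L3, -1.12 for CCL3L1, -0.93 for MYC and -0.91 for SPRY1. It came to -0.83 for CHST12, -0.82 for JUN, -0.78 for ULK1, -0.78 for JUNB, -0.74 for IRF4 and -0.70 for ZFP36. Next in size were -0.67 for PRDM1, -0.65 for FAM3C, -0.64 for RGS16, -0.63 for ADM, -0.62 for MCM7 and -0.60 for HMGCS1. Then followed -0.60 for H1-10, -0.59 for SCARNA18, -0.59 for TSC22D3, -0.58 for CDKN1B, -0.55 for HES6 and -0.53 for DUSP5. Smaller values were -0.53 for H2BC21, -0.52 for POU2AF1, -0.47 for ARHGAP9, -0.43 for CKAP4, -0.43 for BACH2 and -0.42 for P4HB. Others were -0.42 for SDC1, -0.42 for CCND2, -0.41 for TMEM98, -0.39 for CSNK1E, -0.37 for SCARNA22 and -0.33 for XBP1. The smallest were -0.31 for JSRP1.

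Among genes with the higher change in NSC12 it was 1.02 for CENPE, 0.94 for BAG3, 0.89 for HSPA6, 0.65 for KIF20B, 0.60 for HSPA1B and 0.58 for DEDD2. It was lower, though above 0, at 0.57 for POLR3G, 0.57 for DNAJB1, 0.54 for IL2RG, 0.51 for USP16, 0.49 for DDIT4 and 0.46 for HSPH1. The last were 0.44 for DNAJA1, 0.44 for TNFRSF13B, 0.37 for ANXA1 and 0.31 for HSP90AA1. In NSC12 the HSPA6, HSPA1B and DNAJB1 probes read 13.96, 14.21 and 14.04 at 6 h and 13.95, 14.05 and 13.97 at 12 h, close to the highest normalized values, so changes could be hidden. The same holds for HSP90AA1 (14.29 and 14.33) and, among the lower changes, CCL3L3 (13.9 and 14.1). JUN (13.69 and 13.40), DNAJA1 (13.67 and 13.80) and CCL3 (13.27 and 13.02) were also high there. In DMSO JUN read 9.10 and 9.63 and CCL3 8.03 and 8.99.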

How the results depend on the processing

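The 80 calls in DMSO (50 higher, 30 lower) rested on small differences. They became 14 (9 and 5) with quantile normalization over the DMSO arrays alone, 14 (13 and 1) with median centring, 15 (9 and 6) with only the DMSO arrays fitted, 304 (167 and 137) with array weights and 22 (15 and 7) at an adjusted p of 0.01, and cyclic loess gave 16 falls. Leaving out 1 array gave 20 to 122 calls, 12 to 80 higher and 8 to 53 lower. Replicate numbers were not used as pairs in the reported fit. With the replicate block over 12 arrays 54 genes passed, 18 of them lower, and with the replicate block within DMSO 8 (5 and 3). The cause of these changes was not tested, beyond the fewer arrays or the stricter threshold that some settings use. The other alternatives (normexp, mean of probes, only expressed genes, brightness as a covariate, no intensity trend) gave 67 to 100 calls. Of the 80 genes, 75 lost their call in 1 to 14 of the 19 alternatives, and no called gene changed sign. Most settings could hardly have changed a sign, since the arrays of the times were separate in all 80. Genes that did not pass were not counted as rises or falls, although signs of their differences were given. In NSC12 median centring gave 2510 calls. Genes above background numbered 8289 at the 99th percentile and 3298 against probes without a gene. The smallest called difference was 0.26.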
